A study of Mus musculus with 16 samples.

Results

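Ccn2, Gadd45g, Klf2 and Txnip are 4 genes whose transcripts respond within a short time to flow, stress or glucose, and they were examined in kidneys of mice lacking Slc15a2 (Pept2). The 4 genes were chosen by name from all 16 arrays, for their function and because their ratios vary among the knockout kidneys; each has 1 probe that names it alone, so they are 4 of 9669 genes on the array with such a probe and 4 of the 6191 genes that could be tested. Because the members were selected on the spread between knockout mice, that spread is given below as a description and no test is made on it.

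The study compared the right kidneys of 4 male Pept2 knockout mice (Pept-/-) with 1 RNA pool of the right kidneys of 5 wild-type mice (Pept2+/+), all aged 88 (± 2) days and bred on a C57BL/6 and 129Sv mixture. Slc15a2 encodes a proton-coupled peptide transporter of the proximal tubule. Total RNA of each knockout mouse was hybridised with the pool on 4 two-colour spotted cDNA arrays, 2 with the knockout RNA in channel 1 and 2 with it in channel 2, so the animals are the samples (n = 4) and the arrays of a mouse are technical repeats. The wild-type animals were never hybridised singly, and no value below contains their spread.

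CCN2, formerly CTGF, is a secreted matricellular protein whose gene is a standard target of the YAP and TAZ coactivators with TEAD factors and of TGF-beta. GADD45G belongs to a family of small stress proteins that bind the kinase MAP3K4 and switch on p38 and JNK signalling. KLF2 is a zinc finger transcription factor that laminar shear induces in endothelium, where it keeps vessels quiescent. TXNIP is an alpha-arrestin that binds thioredoxin and restrains glucose uptake, and its gene is switched on when glucose metabolites activate the MondoA and ChREBP factors with their partner MLX.

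RefSeq promoter windows (build GRCm38.p6), from 250 bases before to 50 bases after the transcription start, were matched for 3 of the 4 genes: Gadd45g at chr13:51846425-51846724, Klf2 at chr8:72318812-72319111 and Txnip at chr3:96557707-96558006, all on the plus strand. They are shown so that the letters before each start can be read beside the values below. Capitals mark every match, on either strand, to one of 10 motifs.
Gadd45g: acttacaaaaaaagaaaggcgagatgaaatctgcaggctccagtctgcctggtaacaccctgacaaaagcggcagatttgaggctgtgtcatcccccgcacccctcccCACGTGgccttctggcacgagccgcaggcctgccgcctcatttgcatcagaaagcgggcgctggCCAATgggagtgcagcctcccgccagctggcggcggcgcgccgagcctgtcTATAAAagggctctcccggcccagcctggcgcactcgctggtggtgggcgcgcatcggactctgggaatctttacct
Klf2: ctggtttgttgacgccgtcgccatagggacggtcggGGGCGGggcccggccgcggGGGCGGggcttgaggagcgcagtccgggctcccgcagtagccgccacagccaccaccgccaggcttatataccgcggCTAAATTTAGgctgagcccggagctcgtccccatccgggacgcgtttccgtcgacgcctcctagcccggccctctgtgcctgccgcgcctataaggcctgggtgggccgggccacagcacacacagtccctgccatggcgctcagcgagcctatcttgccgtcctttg
Txnip: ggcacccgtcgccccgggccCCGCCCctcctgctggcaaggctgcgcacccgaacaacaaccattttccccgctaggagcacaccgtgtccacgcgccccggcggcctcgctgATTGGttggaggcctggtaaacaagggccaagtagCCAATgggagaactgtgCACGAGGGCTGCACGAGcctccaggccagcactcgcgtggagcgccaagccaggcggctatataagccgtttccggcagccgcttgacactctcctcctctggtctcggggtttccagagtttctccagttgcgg

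The Txnip window holds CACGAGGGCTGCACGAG at -85 to -69 from the start. It matches the pair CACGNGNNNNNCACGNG searched for as the carbohydrate response element, the form of E-box pair that ChREBP and MondoA recognise, and 16 of 32851 promoter windows of this length (0.0487%) hold such a pair. Upstream of the pair lie 2 CCAAT boxes (CCAAT, in 37.4% of windows), at -137 to -133 on the minus strand and at -102 to -98 on the plus strand. The Klf2 window holds CTAAATTTAG at -118 to -109, a match to the MEF2 motif CTANNNNTAG (3.69% of windows), and 2 GC boxes (GGGCGG, 35.7%). The Gadd45g window holds an E-box (CACGTG, 7.15%) at -142 to -137, a CCAAT box, and a TATA box (TATAAA, 13.6%) at -27 to -22. Matches to the TEAD motif GGAATG (14.7%), the AP-1 motif TGANTCA (7.81%), the cyclic AMP element TGACGTCA (1.79%) and the heat shock motif GAANNTTC (7.86%) were not among the letters of these 3 windows. A match describes the letters and is not a measured binding site.

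The values below are log2 ratios of knockout over wild-type pool, each array centred on its median. The sources used here do not state the numerator of the deposited ratio. Channel 1 over channel 2 is its likely direction and was used here, because Slc15a2 then stood below the pool on every one of the 16 arrays, at -2.17, -2.74, -2.81 and -2.33 in mice 1 to 4 (mean -2.51, SE 0.10, limma adjusted p = 2.17e-05). Under the opposite reading every "higher" and "lower" below is exchanged. Between 10134 and 18400 of 20205 probes carried a value on an array. Array 3 of mouse 3 and array 1 of mouse 4 correlated at r = 0.62 across probes, above every pair of arrays from 1 mouse (highest 0.53), and mouse 3 also carried the seminal vesicle transcript Svs5 at 4.94, against 0.21, -0.092 and 1.09 in mice 1, 2 and 4. Spink1, the other measured gene of the seminal vesicle list, stood below the pool in all 4 mice, at -0.43, -0.16, -0.046 and -0.17.

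Txnip had the widest range of the 4 genes. Its means were lower in mice 1 and 2 than in mice 3 and 4, whereas those of each other member were higher in mice 1 and 2. On arrays 1 to 4 it read -0.56, -0.027, -0.48 and -0.12 in mouse 1 and -0.83, -0.44, -0.68 and -0.53 in mouse 2. In mouse 3 it read 0.24, 0.55, 0.26 and 0.48, and in mouse 4 it read 0.047, 0.37, -0.088 and 0.28. All 8 arrays of mice 1 and 2 lay below the pool, and 7 of the 8 arrays of mice 3 and 4 above it. The means of mice 1 to 4 were -0.30, -0.62, 0.38 and 0.15, so that Txnip was 2.00-fold higher in mouse 3 than in mouse 2. The order of the mice was the same in both dye orientations: 2, 1, 4, 3 from low to high. The arrays of mice 1 and 2 overlapped, as did those of mice 3 and 4, while mouse 4 overlapped mouse 1 only through its array at -0.088.

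Gadd45g was lowest in mouse 3 and highest in mouse 1. On arrays 1 to 4 it read -0.12, 0.15, 0.18 and -0.12 in mouse 1 and -0.58, -0.43, 0.16 and -0.37 in mouse 2. In mouse 3 arrays 1, 2 and 4 read -1.0, -0.84 and -0.69 with array 3 blank, and in mouse 4 the arrays read -0.69, -0.19, -0.72 and -0.29. Every array of mouse 3 lay below every array of mouse 1 and mouse 2. The arrays of mouse 4 overlapped those of mouse 2 and also those of mouse 3. The means were 0.023, -0.30, -0.88 and -0.48, a 1.87-fold distance between mouse 1 and mouse 3. Mice 2 and 4 changed places with the dye, at -0.40 and -0.24 with knockout RNA in channel 1 and -0.21 and -0.71 in channel 2.

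Klf2 was also lowest in mouse 3, on fewer values. It read 0.043, 0.067 and 0.31 on arrays 1, 3 and 4 of mouse 1, with array 2 blank, and -0.13, 0.077, 0.45 and 0.093 on arrays 1 to 4 of mouse 2. Mouse 3 had values on arrays 2 and 3 only, -0.38 and -0.92. Mouse 4 read -0.19, 0.057, -0.36 and -0.070. Both values of mouse 3 lay below every value of the other mice, whose arrays overlapped each other. The means were 0.18, 0.12, -0.65 and -0.14, and the distance between mouse 1 and mouse 3 was 1.78-fold. The lower of the values in mouse 3 is from array 3, one of the 2 arrays with the high correlation named above. The range moved with the arrays used: on arrays 3 and 4 alone it was 1.2, and on arrays 1 and 2 alone 0.42, with mouse 3 lowest in both.

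Ccn2 had the narrowest range and repeated closely between arrays. It read -0.23, -0.081, -0.16 and -0.14 on arrays 1 to 4 of mouse 1 and -0.21, 0.11, -0.12 and -0.014 in mouse 2. It read -0.55, -0.33, -0.36 and -0.58 in mouse 3 and -0.57, -0.59, -0.57 and -0.43 in mouse 4. The arrays of mice 3 and 4 all lay below those of mice 1 and 2, while mice 1 and 2 overlapped and so did mice 3 and 4. The means were -0.15, -0.060, -0.46 and -0.54, a 1.4-fold distance between mouse 2 and mouse 4, with the same order of mice in both orientations.

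**Figure D1:**
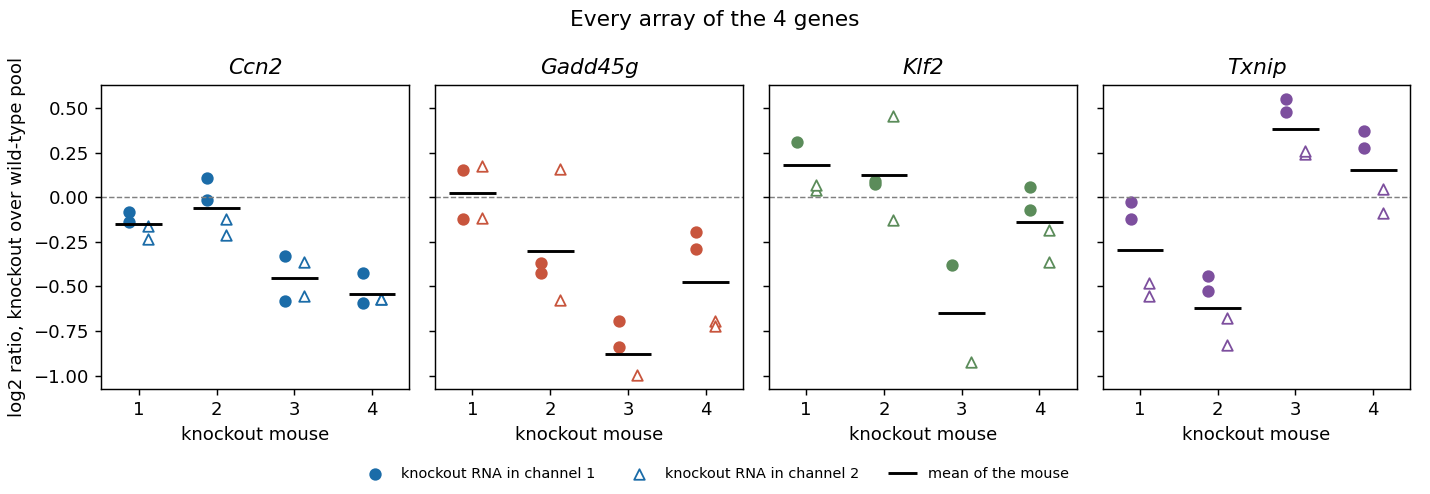
Log2 ratio of knockout over wild-type pool (y axis) of Ccn2, Gadd45g, Klf2 and Txnip on each array, by knockout mouse (x axis); filled circles have the knockout RNA in channel 1, open triangles in channel 2, and black lines are the mean of a mouse. Txnip is above 0 in the mean of mice 3 and 4 (0.38 and 0.15) and below it in mice 1 and 2, while the other three are lowest in mouse 3 or mouse 4.

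The spread between mice that led to the choice of these genes is given with the spread of repeat arrays, as a description, since both enter the contrast on which they were chosen. The SD between mice was 0.45 for Txnip, 0.38 for Klf2, 0.38 for Gadd45g and 0.23 for Ccn2, against a median of 0.099 over all genes tested. The SD of repeat arrays of the same mouse and orientation was 0.070 for Txnip and 0.0995 for Ccn2, below the median of 0.17 over all genes, and 2.29% and 10.1% of genes repeated more closely. For Klf2 and Gadd45g it was 0.20 and 0.23, with 66.1% and 79.4% of genes repeating more closely. Over all genes, 163 of 6191 (2.63%) differed between the 4 mice in a moderated F test at an adjusted p of 0.05. The members were chosen on that contrast, and nothing is read from it for them.

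**Figure D2:**
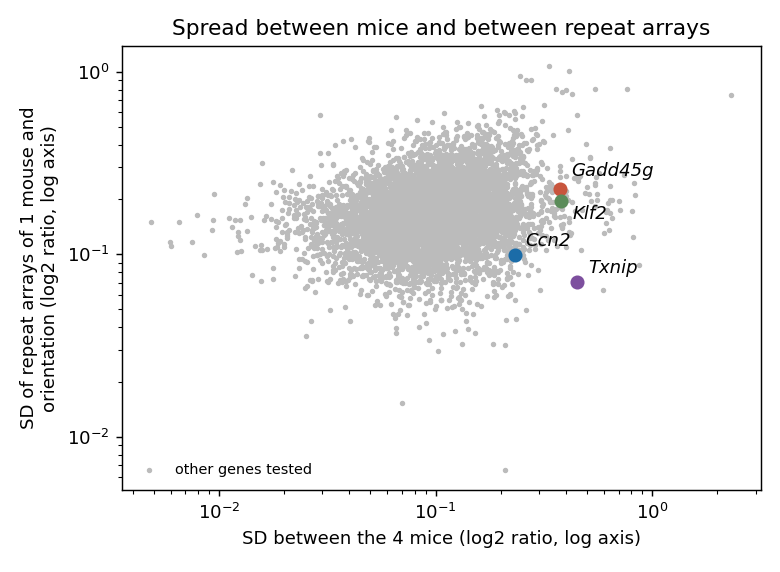
SD between the 4 mice (x axis) against the SD of repeat arrays of 1 mouse and orientation (y axis), in log2 ratio on log axes, for the 6191 genes tested; grey points are other genes and coloured points the 4 genes. Txnip (0.45 between mice, 0.070 between arrays) and Ccn2 (0.23 and 0.0995) lie low for repeat arrays, and Gadd45g and Klf2 lie in the body of the other genes on that axis.

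Averaged over the knockout mice, none of the 4 genes passed the threshold against the pool of wild-type RNA. Gadd45g stood at -0.41 ± 0.38 (SD, n = 4 mice; SE 0.12, 1.33-fold lower, limma adjusted p = 0.177), with 3 of 4 mice below the pool. Ccn2 stood at -0.30 ± 0.23 (SD, n = 4 mice; SE 0.081, 1.23-fold lower, limma adjusted p = 0.167), with all 4 mice below it. Klf2 stood at -0.12 (SE 0.12, adjusted p = 0.616) and Txnip at -0.095 (SE 0.14, adjusted p = 0.739), each with 2 of 4 mice below the pool. Over all genes 13 of 6191 (0.21%) passed this limma test, 9 of them lower in knockout kidney (0.145%). The wide spread between mice on which the genes were chosen enters these standard errors, whose median over all genes was 0.052. The signs of Klf2 and Txnip turned with the dye orientation: with knockout RNA in channel 1 alone they stood at 0.0027 and 0.070, and in channel 2 alone at -0.24 and -0.26. Treating all arrays as separate samples with the mouse as a random block gave adjusted p values of 0.00247 for Ccn2 and 0.0182 for Gadd45g, with a correlation within mouse of 0.054 that counts technical arrays nearly as animals.

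Dye orientation was a measure that the choice of genes did not use. Over all genes, 3472 of 6191 read higher with knockout RNA in channel 1. Txnip read higher with knockout RNA in channel 1 than in channel 2 in 4 of 4 mice, by 0.33 (SE 0.073, limma adjusted p = 0.159). Klf2 read higher in channel 1 by a mean of 0.25 (SE 0.10, limma adjusted p = 0.253), with 3 of 4 mice higher. Gadd45g did so by 0.12 (adjusted p = 0.560), with 2 of 4 mice higher, and Ccn2 by 0.092 (adjusted p = 0.507), with 4 of 4. Of all genes, 0 of 6191 (0%) passed this limma test, although 1208 had an unadjusted p under 0.05. Among the 2681 genes whose probes had a value on all 16 arrays, 104 passed, Txnip among them (adjusted p = 0.0334). The range of Txnip over mice was 1.00 in either orientation alone. Txnip was chosen for that spread, so the range is not compared with the shift between dyes.

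The profiles of the 4 genes over mice were compared by the root mean square difference over 8 values, 4 mice by 2 orientations, after each orientation was centred on its mean. Gadd45g and Klf2 were the closest pair, 0.14 apart where each varied by 0.35 around its own mean. Ccn2 was 0.29 from Gadd45g and 0.28 from Klf2. Txnip was 0.58 to 0.71 from the other three, and 0.22 to 0.29 from them once its sign was turned. These distances describe 4 animals, share the pool and most arrays, and are taken from the spread between mice on which the genes were chosen. In mouse 3 with knockout RNA in channel 2, Gadd45g rests on array 1 alone (-1.0) and Klf2 on array 3 alone (-0.92).

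By the same measure, the genes nearest to Txnip were Susd2, a sushi domain membrane protein gene (0.0995 apart), Dhrs3, a retinaldehyde reductase (0.14), and Azgp1, a secreted zinc-binding glycoprotein (0.16). Susd2 stood at 0.11, -0.078, 0.66 and 0.55 in mice 1 to 4. Nearest to Gadd45g were the kinase Pim3 (0.089), the membrane protein gene Tm9sf2 (0.11) and the ubiquitin ligase Wwp1 (0.11). Pim3 stood at 0.18, -0.15, -0.63 and -0.36. Wwp1 was also the nearest gene to Klf2 (0.11), followed by the metalloproteinase Adamts1 and the fatty acid elongase Elovl7 (0.12 each). Adamts1 stood at 0.28, 0.18, -0.38 and -0.073. Nearest to Ccn2 were the RNA-binding protein gene Ssb (0.044), the retinol dehydrogenase Rdh16f2 (0.052) and the mitochondrial channel Vdac2 (0.057). Ssb stood at -0.014, 0.062, -0.35 and -0.37, and Rdh16f2 stood above the pool in every mouse, between 0.46 and 0.85. No relation of function is read from these distances.

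**Figure D3:**
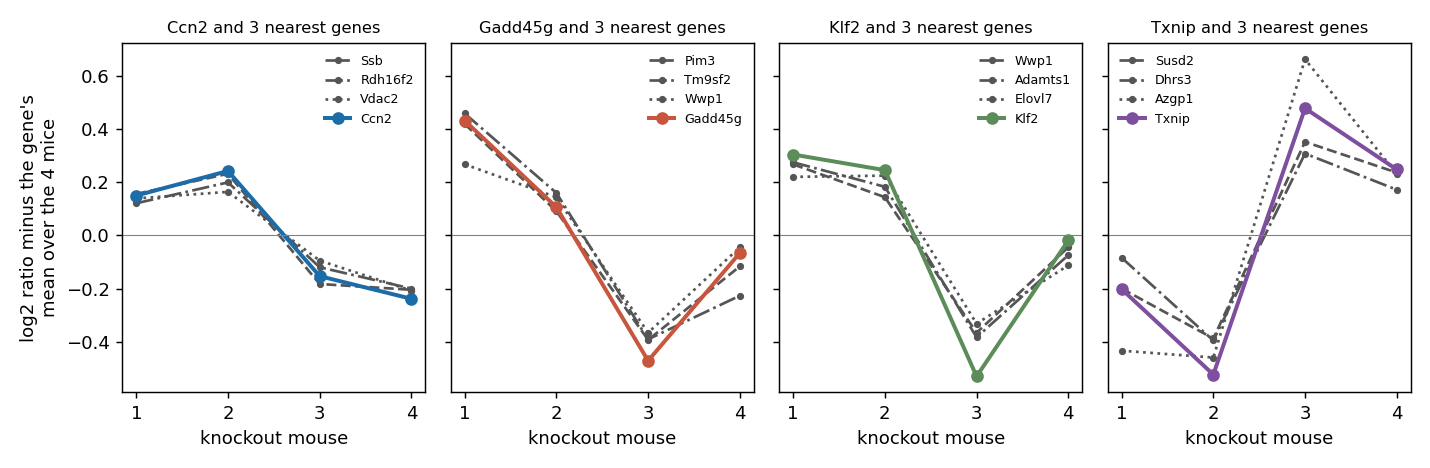
Log2 ratio minus the gene's own mean over the mice (y axis) by knockout mouse (x axis) for each of the 4 genes (coloured) and its 3 nearest genes (grey); lines join the values of 1 gene and carry no order of the mice. The grey profiles share the low point of Gadd45g and Klf2 in mouse 3 and the high point of Txnip there.

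Genes around Txnip were measured for 26 of 40 members of a list of thioredoxin, arrestin and glucose response genes. None passed against the pool or between mice, where 0.21% and 2.63% of all genes did, and the list's median was -0.0013 beside -0.0038 over all genes. The binding partner of TXNIP, thioredoxin Txn1, stood at -0.061, -0.058, -0.28 and -0.29 in mice 1 to 4 (mean -0.17, adjusted p = 0.198). Mlx, the partner of ChREBP and MondoA, stood at -0.052, -0.031, -0.24 and -0.36 (mean -0.17, adjusted p = 0.237), and Mlxipl, which encodes ChREBP, at 0.017, 0.023, 0.23 and 0.22 (mean 0.12, adjusted p = 0.307). Gpd1, glycerol-3-phosphate dehydrogenase, stood at a mean of 0.15 (adjusted p = 0.219), and Prkaa2, a catalytic subunit of AMP kinase, at 0.25, -0.15, -0.30 and -0.32 (adjusted p = 0.115 between mice). The redoxin Glrx stood between -0.19 in mouse 3 and 0.11 in mouse 2. The alpha-arrestins Arrdc1 and Arrdc2, named after their values were seen, ranged over 0.115 and 0.18 across mice. The median range over all genes was 0.22. Txnip was chosen for its spread between mice, so its range is not compared with theirs.

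Of 15 genes whose promoter window holds the pair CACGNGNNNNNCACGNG, 7 were measured. Besides Txnip these included Fem1b, at 0.18, 0.18, -0.17 and -0.21 in mice 1 to 4, low in the mice in which Txnip was high. Fem1b differed between mice (moderated F, limma adjusted p = 0.0368), beside 163 of 6191 genes (2.63%) over all genes. The other five (A430005L14Rik, Man2b2, Nfkb2, Rbbp4 and Rbmxl1) did not pass between mice, with ranges from 0.13 to 0.23. These genes were looked up after the Txnip window was read, and no relation to the pair is read from their values.

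Around Gadd45g, 16 of 26 genes of the GADD45 family, growth arrest and p53 response were measured, with a median of -0.014, none past the threshold against the pool and 1 of 16 that differed between mice, beside 163 of 6191 (2.63%) over all genes. That gene was Ccng1, cyclin G1, a p53 target, at -0.072, 0.042, -0.43 and -0.34 in mice 1 to 4 (adjusted p = 0.00908 between mice and 0.260 against the pool). The cell cycle inhibitor Cdkn1a stood at a mean of -0.16 (adjusted p = 0.240) and Ddit4, an inhibitor of mTOR signalling, at -0.15 (adjusted p = 0.288). Mdm2, the p53 ligase, and Atf4, the factor of the integrated stress response, were both lowest in mouse 3, at -0.26 and -0.27 (adjusted p = 0.0612 and 0.0763 between mice). In the list 5 of 16 genes were lowest in mouse 3 and 3 were highest there, beside 1718 and 1719 of 6191 over all genes. Those highest there were the repair gene Xpc at 1.25, the sestrin Sesn1 at 0.41 and the phosphatase Ppm1d at 0.30. They were named after their values were seen (adjusted p = 0.371, 0.162 and 0.550 between mice). The difference of channel 1 minus channel 2 for Xpc was -0.46 (SE 0.40). The paralog Gadd45b and the kinase Map3k4, named after their values were seen, ranged over 0.11 and 0.094, where the median over all genes was 0.22. Gadd45g was chosen for its spread, so its range is not compared with theirs.

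Around Ccn2, 11 of 37 YAP, TEAD and TGF-beta genes were measured, 7 of them with a negative ratio (3205 of 6191 over all genes) and a median of -0.073. None passed against the pool or between mice, where 0.21% and 2.63% of all genes did. The coactivators Yap1 and Wwtr1 (TAZ) stood at 0.078, -0.0049, -0.27 and -0.27 and at 0.010, -0.083, -0.29 and -0.13 in mice 1 to 4. Their adjusted p was 0.0779 and 0.358 between mice and 0.402 and 0.319 against the pool. Fibronectin, Fn1, stood at -0.16, -0.018, -0.41 and -0.27 (mean -0.21, adjusted p = 0.183), and the receptor Tgfbr2 at a mean of -0.097 (adjusted p = 0.328). The family member Ccn1, a flow and YAP target named after its values were seen, ranged over 0.20 and was not low in mice 3 and 4 (0.029 and 0.091).

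Around Klf2, 7 of 31 genes of the KLF family and of shear stress were measured, with a median of 0.019. None passed against the pool or between mice, beside 0.21% and 2.63% of all genes. Klf13 stood at a mean of 0.14 (adjusted p = 0.248), Pkd1, a mechanosensor gene of the tubule, at 0.071 (adjusted p = 0.445), and Klf1 at -0.052 (adjusted p = 0.563). Mef2c, of the family that binds the MEF2 motif, stood between -0.074 in mouse 3 and 0.16 in mouse 4, and Txnrd1, thioredoxin reductase, between -0.10 in mouse 4 and 0.13 in mouse 2.

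Among immediate early and stress genes, 17 of 40 were measured, with a median of 0.019, none past the threshold against the pool and 1 of 17 that differed between mice, beside 2.63% of all genes. That gene was Rhob, a small GTPase, at -0.42, 0.23, 0.94 and 0.32 (adjusted p = 8.37e-05 between mice). The probe of Rhob correlated above 0.9 over the arrays with 20 other probes of 9462 compared, against 9 for the probe of Txnip and 3 for that of Ccn2 of the same number. The probe of Klf2 did so with 1 of 6875 and that of Gadd45g with 0 of 8721. Each orientation was first centred on its mean, and probes sharing at least 12 arrays were compared. The same count was not made over all genes. Ier3 stood at a mean of 0.14 (adjusted p = 0.315), Zfp36l1 at -0.086 (adjusted p = 0.385), the survival gene Mcl1 at 0.21, 0.0036, -0.19 and -0.26, and Plk3 between -0.12 and 0.40. Of the 12 measured glucocorticoid and insulin response genes (of 19), 10 had a negative ratio, beside 3205 of 6191 over all genes, and 1 differed between mice, beside 2.63% of all genes: Errfi1, a feedback inhibitor of EGF receptors, at 0.26, -0.26, -0.13 and -0.095 (adjusted p = 0.0161). The metallothioneins Mt1 and Mt2 stood at 0.13, 0.075, -0.46 and -0.29 and at 0.27, 0.053, -0.25 and -0.21 (adjusted p = 0.0763 and 0.235 between mice). Fkbp5 stood at a mean of -0.16 (adjusted p = 0.246), and the clock gene Per1 at 0.11 (adjusted p = 0.357). By mouse, the median of this list was 0.13, 0.011, -0.14 and -0.10.

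In whole kidney, fewer cells of a type and less RNA per cell cannot be told apart. Endothelial markers, of the cells in which KLF2 is best known, had a negative ratio in 10 of 11 measured genes, beside 3205 of 6191 over all genes. Their medians were -0.036, -0.085, -0.13 and -0.062 in mice 1 to 4. None passed against the pool or between mice, beside 0.21% and 2.63% of all genes. Smooth muscle, pericyte and fibroblast markers, of cells that make CCN2, had a negative ratio in 9 of 11, with medians of -0.18, 0.032, -0.18 and -0.12. Of the 11, 2 differed between mice, beside 2.63% of all genes. They were Col1a1, at -0.17, 0.21, -0.23 and 0.039 in mice 1 to 4, and Mgp, at -0.43, 0.11, -0.29 and -0.18. Both were highest in mouse 2, as Ccn2 was, while Col1a1 was lowest in mouse 3 and Mgp in mouse 1. Of the same list, Dcn and Fbln1 were lowest in mouse 4 (-0.21 and -0.23), as Ccn2 was, and 4 of the 11 genes were lowest in mouse 3. Proximal tubule markers had medians from 0.020 to 0.086 (9 genes), collecting duct markers from 0.025 to 0.12 (6 genes) and leukocyte markers from -0.034 to 0.13 (9 genes). Foxi1, the intercalated cell transcription factor, stood at 0.41, 0.29, -0.40 and -0.21 in mice 1 to 4 (moderated F, limma adjusted p = 0.000714), lowest in mouse 3 as Gadd45g and Klf2 were. The other five genes of the collecting duct list did not differ between mice: in mouse 3 Aqp2, Hsd11b2 and Fxyd4 stood at 0.28, 0.25 and 0.23, and the intercalated cell transporters Slc4a1 and Slc26a4 at 0.014 and -0.18. Umod, of the thick ascending limb, stood at -0.14, -0.33, 0.19 and 0.27 (adjusted p = 0.0125), low in mice 1 and 2 as Txnip was, while Ppp1r1a, the other measured gene of that list, stood at -0.13, -0.094, -0.39 and -0.17. Of 4 adipose markers, Car3, highest in mouse 3 (0.60), and Fabp4, highest in mouse 2 (0.34), differed between mice (adjusted p = 0.000712 and 0.0108). Lpl and Retn did not pass (adjusted p = 0.641 and 0.887), and the proximal tubule transporter Slc22a8 was higher than the pool in all 4 mice (mean 0.48, adjusted p = 0.0149). The part of these shifts, and of Svs5, in the values of the 4 genes was not tested.

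**Figure D4:**
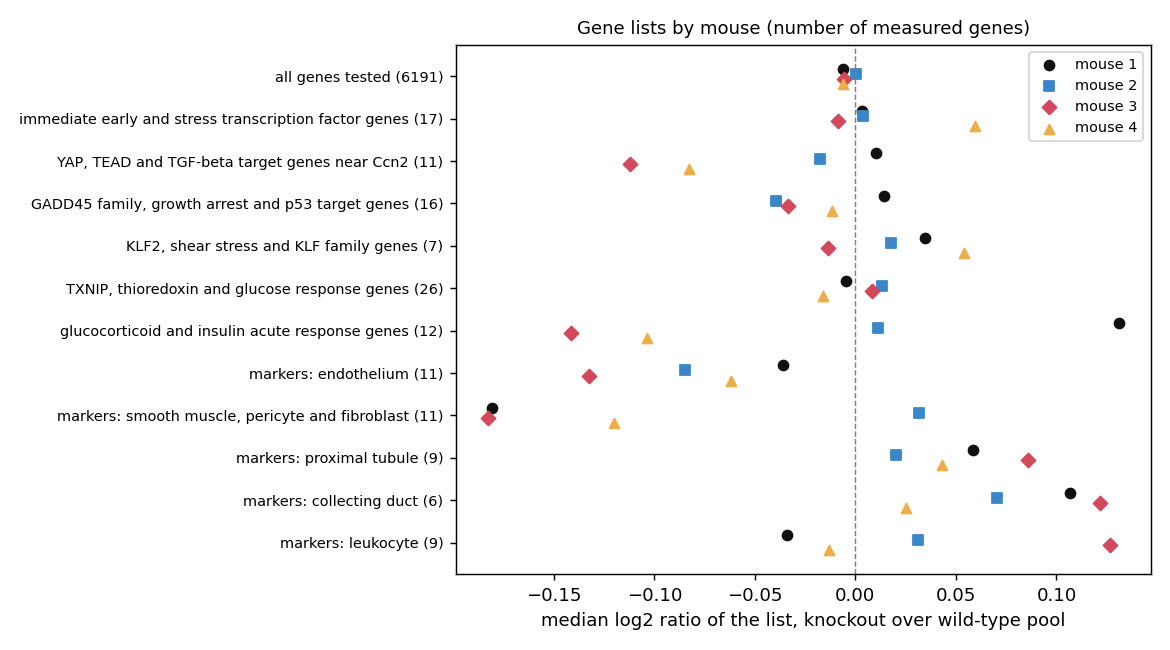
Median log2 ratio of knockout over wild-type pool (x axis) of each gene list with at least 5 measured genes (y axis, number measured in brackets), with 1 symbol per mouse; the 4 genes themselves are left out of the lists. The glucocorticoid and insulin list runs from 0.13 in mouse 1 to -0.14 in mouse 3, and the TXNIP list lies between -0.016 and 0.013 in all mice.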

How the data were processed

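Per the labels, RNA was labelled indirectly with Cy3 or Cy5, a GenePix 4000A read the slides, GenePix Pro 3.0 measured the spots, and the authors subtracted background and set the median ratio of an array to 1. The deposited values are log2 ratios per probe and array (20205 probes, 16 arrays); base 2 was inferred because 46.5% of 720 distances between repeated values matched the log2 of a fraction of small whole numbers and 0.0% matched natural or log10 values. The filter behind blank cells, and which dye each channel carried, are not given in the sources used here.

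Each array was centred on its median, and the 2 orientation means of each mouse were averaged. Probes with a value in each orientation of each mouse were kept, and probes naming 1 gene were averaged (6191 genes; symbols matched by gene identifier for 11590 of 11723 such probes). Tests were two-sided in limma 3.58.1 (R 4.3.3) with Benjamini-Hochberg adjustment over all genes and a threshold of 0.05: the ratio against 0 over 4 mice, a moderated F test between mice over arrays with a dye term, and the orientation difference. Each test was first tested on simulated data. The F test rests on technical arrays and compares these animals only.

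The members and lists were chosen with earlier results of these data known. Genes were named by a fixed rule: Slc15a2, the members, list genes past the threshold against the pool or with the 3 smallest p in either test, and the 3 nearest genes of each member. Other named genes are marked as such, or are markers. Alternatives changed the centring, scale, blank filter, probe choice, averaging, orientation, arrays and mice.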

Additional observations from a re-analysis of the deposited data

Results flagged for a closer look

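Of 17 sets of 4 arrays of 1 mouse examined for Slc15a2 and the members, 1 had an array that stood far from the other three: Ccn2 on array 4 of mouse 4 read -0.43, where the others read between -0.59 and -0.57. Of 46 named genes examined over the 4 mice, 1 had a mouse far from the others: Zfp36l1 read 0.028 in mouse 1, whereas mice 2 to 4 lay from -0.14 to -0.11. Chance alone marks about 1 in 20 such sets.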

How the results depend on the processing

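With the mouse as the sample, 15 alternatives were run for Ccn2 (-0.38 to -0.22) and 13 for Gadd45g (-0.55 to -0.25). In them the ratio to the pool kept its sign and stayed above an adjusted p of 0.05 (lowest 0.0988 and 0.145). In limma on all arrays with the mouse as a random block, both passed (adjusted p = 0.00247 and 0.0182). That setting counts technical arrays nearly as animals. Klf2 turned positive with knockout RNA in channel 1 alone (0.0027), and over the left-out mice lay between -0.22 and 0.056, the latter without mouse 3. Txnip turned positive in channel 1 alone (0.070), and over the left-out mice lay between -0.25 and 0.079, the latter without mouse 2. No alternative put Klf2 or Txnip past the threshold. The range over mice moved by more than the spread of repeat arrays for Klf2 in channel 2 alone (1.09 against 0.83) and for Txnip with scaled arrays (1.08 against 1.00). Settings in which a gene could not be tested are not in this comparison. The 13 genes differing from the pool became 40 with probes on all 16 arrays, 2 with at least 1 value in each mouse, 1 in channel 2 alone, 4 on arrays 1 and 2, 8 on arrays 3 and 4, 403 with the mouse as a random block, and 1 to 6 with a mouse left out. The 163 genes differing between mice became 107 with no dye term and 41 to 136 with 1 mouse fewer. A further setting, chosen after seeing the data, dropped array 3 of mouse 3 and array 1 of mouse 4 and also asked for only 1 value in each mouse. It gave 2 genes against the pool and 76 between mice, where that looser filter alone, added for the test between mice, gave 2 and 136. In it Klf2 stood at -0.064 and Txnip at -0.10. The dye test called 1 gene with scaled arrays and 104 of 2681 genes with a value on all 16 arrays. The cause of these changes was not tested. Because of blanks, Gadd45g and Klf2 could not be tested with all 16 arrays, nor Gadd45g on arrays 3 and 4, where its range was 0.72. Klf2 could not be tested on arrays 1 and 2 alone, where its range was 0.42, or on arrays 3 and 4 alone, where it was 1.2. Both of these Klf2 ranges lay further from 0.83 than the SD of its repeat arrays (0.20). Each gene rests on 1 probe, 4 animals and 1 pool.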

Other observations

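Mlxip, which encodes MondoA, stood at -1.06 in mouse 3, the mouse with the highest Txnip, against -0.0040, 0.049 and 0.11 in mice 1, 2 and 4. It had values on 10 of 16 arrays and did not differ between mice in the moderated F test (limma adjusted p = 0.551). Its difference of channel 1 minus channel 2 was 0.69 (SE 0.42). No relation to Txnip is read from it. Mlxip was picked out after its values were seen.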
